A study of Mus musculus with 6 samples.

Results

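The IgLON genes Opcml, Ntm, Lsamp and Negr1 were followed in embryonic mouse spleens with altered Tlx1. Each of the 4 genes was measured by 1 probe set that carries its symbol alone, among 19938 genes so named on the array, 18710 of which were bright enough to be tested. The genes were chosen by their intensities in this same comparison of genotypes, because Opcml and its chromosomal neighbour Ntm were both lower in homozygous spleens, so the levels and fold changes of all 4 are given as a description with no test. Total RNA of embryonic spleens at E13.5 was hybridised to 6 Affymetrix arrays, of which 3 held RNA of Tlx1 heterozygous and 3 of Tlx1 homozygous spleens. Homozygous is read as homozygous for the altered allele, so every embryo carried at least 1 altered Tlx1 allele, and no wild-type group was compared. The labels give no name or design of the allele and no strain. They do not state whether a replicate is 1 embryo or a pool, and the sex-linked levels given below bear on this. The p-values here thus cover only how far these 6 samples scatter, which may be technical scatter.

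IgLON proteins are small adhesion molecules made of immunoglobulin domains and held on the outer face of the cell membrane by a lipid anchor. They bind themselves and each other across cell contacts and are best known from neurons, where they guide neurite growth and synapse formation. Metalloproteinases can release them from the membrane, and Opcml and Negr1 are also known to bind receptor tyrosine kinases, with OPCML lost in many human carcinomas.

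Opcml and Ntm lie next to each other on chromosome 9 with no protein-coding gene between them in RefSeq, and are transcribed toward each other, Opcml from the plus and Ntm from the minus strand. Lsamp lies on chromosome 16 and Negr1 on chromosome 3. The bases just before the RefSeq starts of the lower pair are printed to show what these windows do and do not share, 250 bases each, 5′ to 3′ on the gene's own strand, from RefSeq on GRCm38.p6. The Opcml window is chr9:27791049-27791298 on the plus strand, and those of the pair of Ntm starts are chr9:29413453-29413702 and chr9:29412686-29412935 on the minus strand. RefSeq's gene spans reach further upstream than these starts for both genes, and the start used in the spleen was not determined. Capitals mark the letters AAGTG, the core of NK homeobox sites, on either strand (written CACTT on the other).
Opcml: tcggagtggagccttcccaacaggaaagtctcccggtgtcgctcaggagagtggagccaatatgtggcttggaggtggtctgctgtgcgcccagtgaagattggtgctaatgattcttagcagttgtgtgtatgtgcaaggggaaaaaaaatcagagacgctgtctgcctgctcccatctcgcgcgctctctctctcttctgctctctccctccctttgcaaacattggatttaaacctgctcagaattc
Ntm, first start: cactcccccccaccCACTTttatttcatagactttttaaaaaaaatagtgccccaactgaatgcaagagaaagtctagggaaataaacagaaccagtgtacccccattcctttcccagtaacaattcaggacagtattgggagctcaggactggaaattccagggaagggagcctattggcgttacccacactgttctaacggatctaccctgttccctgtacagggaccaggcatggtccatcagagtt
Ntm, second start: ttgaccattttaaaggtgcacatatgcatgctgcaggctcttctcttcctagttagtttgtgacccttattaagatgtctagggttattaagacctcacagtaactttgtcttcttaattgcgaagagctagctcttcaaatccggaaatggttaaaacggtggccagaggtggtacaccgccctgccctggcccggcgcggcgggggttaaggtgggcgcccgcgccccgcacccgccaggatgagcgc
AAGTG occurred once, in the first Ntm window, and 40.7% of 32851 promoter windows of this length held it. The homeobox letters TAATTA (in 4.8% of windows) and the TATA box letters TATAAA (in 12.4%) were in neither gene's windows, nor in those of Lsamp or Negr1. The Opcml window held 8 CG dinucleotides and the Ntm windows 2 and 14, against a median of 6 over all windows. The printed windows thus differed in this respect, which does not tell whether the starts used in the spleen do. The Negr1 window held 19, and the Lsamp windows 12 and 3.

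Across the series, array medians lay between 106 and 110 intensity units, and log2 values correlated at 0.995 to 0.997 within and 0.989 to 0.993 between groups. Tlx1 was 750 ± 65.3 in heterozygous and 193 ± 19.9 in homozygous spleens (SD, n = 3), and its probe set could not be placed relative to the altered sequence. Of the genes tested, 17.0% were called at an adjusted p below 0.05 in limma, 10.4% higher and 6.56% lower in homozygous spleens. The groups did not overlap for 17.2% of genes in the lower and 21.1% in the higher direction. The Y-linked gene Eif2s3y was brighter on heterozygous arrays 1 and 3 (600 and 735) than on the other 4 (391 to 417). So were the Y-linked genes Kdm5d (348 and 377 against 206 to 228) and Uty (388 and 471 against 233 to 276). The X-linked gene Xist was dimmer on heterozygous arrays 1 and 3 (901 and 812) than on the other 4 (1478 to 1856). These levels were thus not balanced between genotypes. On every array both Xist (812 to 1856) and the Y-linked genes (206 to 735) lay above the array medians of 106 to 110. No array thus showed Xist without the Y-linked genes, or these without Xist. The background of these probe sets is not known. Whether each array held RNA of both sexes, as a pool of embryos could, and whether the share of male tissue differs between arrays was not tested.

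Opcml and Ntm were lower in homozygous spleens by about the same factor. Opcml encodes the opioid-binding cell adhesion molecule, named for its isolation with opioid-binding activity from brain. Its intensity was 515, 575 and 543 on the heterozygous arrays and 223, 252 and 256 on the homozygous arrays. All heterozygous arrays lay above all homozygous arrays, and arrays of one group lay close together. The means were 544 ± 29.8 and 244 ± 17.7 (SD, n = 3), a 2.23-fold lower level and a log2 fold change of −1.16 ± 0.08 (SE). Ntm encodes neurotrimin, an IgLON first described on subsets of brain and sensory neurons. Its intensity was 921, 949 and 969 on the heterozygous arrays and 416, 459 and 397 on the homozygous arrays. These groups were again apart. Heterozygous array 1 was the lowest of its group for both genes, while the highest heterozygous array and the order of the homozygous arrays differed between them. The means were 947 ± 23.9 and 424 ± 31.8 (SD, n = 3), a 2.23-fold lower level and a log2 fold change of −1.16 ± 0.07. In bulk tissue, fewer cells that express a gene and less RNA per cell cannot be told apart.

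The changes of Opcml and Ntm differed by 0.003 on the log2 scale. This is smaller than the scatter of the Opcml minus Ntm difference between arrays (SD 0.06 heterozygous and 0.14 homozygous, n = 3 each). The log2 difference between both genes, set to a mean of 0 over the heterozygous arrays, was −0.04, 0.07 and −0.04 there and −0.09, −0.06 and 0.17 on the homozygous arrays, with homozygous array 3, where Ntm was dimmest, standing highest. Among all 18710 genes, 45 were lower by at least 1 on the log2 scale, and Ntm and Opcml held places 30 and 31 from the largest decrease. The estimates stayed between −1.20 and −1.10 for Opcml and between −1.22 and −1.11 for Ntm when any 1 array was left out.

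Lsamp and Negr1 were not lower. Lsamp encodes the limbic system-associated membrane protein, an IgLON of limbic circuits. Its intensity was 142, 149 and 138 on the heterozygous arrays and 187, 167 and 186 on the homozygous arrays. All homozygous arrays lay above all heterozygous ones, in the direction opposite to Opcml and Ntm. The means were 143 ± 5.82 and 180 ± 11.4 (SD, n = 3), a 1.26-fold higher level and a log2 fold change of 0.33 ± 0.07. Negr1, also called kilon, encodes a neuronal growth regulator. Its intensity was 130, 114 and 158 on the heterozygous arrays and 156, 138 and 160 on the homozygous arrays. The groups overlapped, with heterozygous array 3 as bright as the homozygous arrays. The means were 134 ± 22.4 and 151 ± 11.9 (SD, n = 3), with a log2 fold change of 0.18 ± 0.12. That of Negr1 ranged from 0.07 without heterozygous array 2 to 0.31 without heterozygous array 3, and was 0.39 in a fit that includes the level of Y-linked genes.

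**Figure D1:**
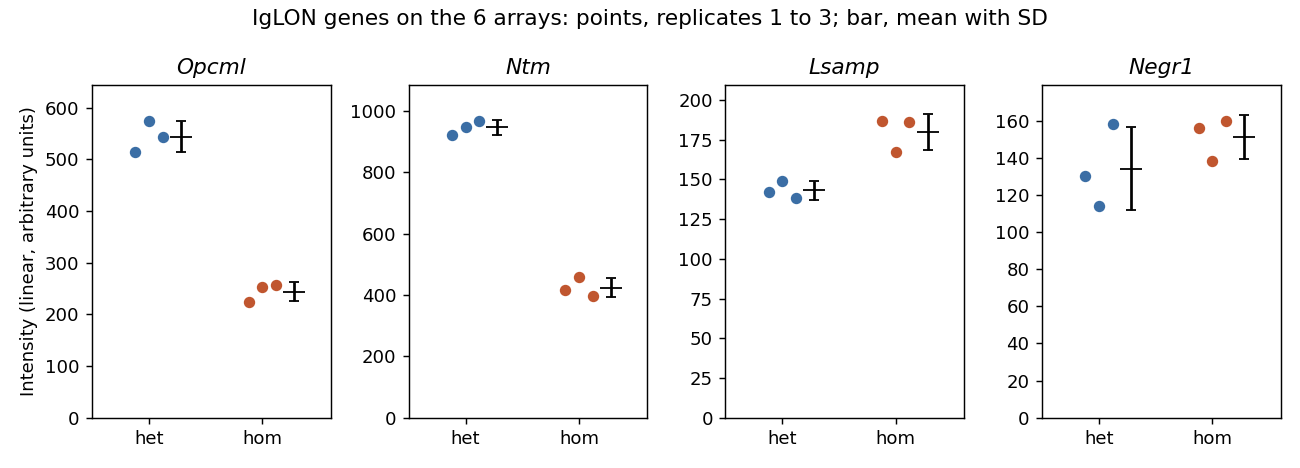
Intensity (linear scale, from 0) of Opcml, Ntm, Lsamp and Negr1 on 3 heterozygous (het) and 3 homozygous (hom) arrays. Points are arrays, and bars show the mean with SD (n = 3). For Opcml and Ntm the homozygous arrays sit at 223 to 256 and 397 to 459, below all heterozygous arrays, for Lsamp they sit above them, and for Negr1 the groups overlap.

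Of the 4 members, 3 were among the called genes (17.0% of all genes were), 2 lower and 1 higher. Since this contrast chose the members, nothing is read from that count. Iglon5, which completes the family and was not chosen for its change, was measured by 1 probe set at 149, 150 and 139 on the heterozygous and 157, 146 and 202 on the homozygous arrays. The groups overlapped, and homozygous array 3 stood above the rest. The log2 fold change was 0.19 ± 0.11 (adjusted p = 0.277), so no change was shown. Levels of different probe sets cannot be ranked, so the order of the 5 genes in abundance is not given.

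Among the genes that flank Opcml and Ntm no fall passed the test. All protein-coding genes within 5 positions of either gene in the RefSeq order were examined. Of these 10, 9 were bright enough to be tested. Spata19, directly beside Opcml, was not, with a highest intensity of 16.3. On the far side of Ntm came Snx19, a sorting nexin gene (0.06 ± 0.06, adjusted p = 0.499), and Adamts15, a matrix protease gene (0.05 ± 0.06, adjusted p = 0.604). These next neighbours thus lay near 0 where Ntm was at −1.16. Before Opcml came the adhesion gene Igsf9b (0.16 ± 0.08, adjusted p = 0.185), the junction gene Jam3 (0.04, adjusted p = 0.781), the condensin gene Ncapd3 (−0.24 ± 0.08, adjusted p = 0.0736) and the retromer gene Vps26b (−0.08, adjusted p = 0.401). Ncapd3 passed as lower in the refit without homozygous array 2 (−0.30, adjusted p = 0.0414) and, with adjusted p of 0.0305 to 0.0496, with a variance trend or an added 16. Beyond Adamts15, the protease gene Adamts8 rose from 72.4 ± 3.21 to 106 ± 1.14 (SD, n = 3; log2 fold change 0.55 ± 0.06, adjusted p = 0.00125). Zbtb44, a zinc finger gene, was at 0.04 (adjusted p = 0.647), and the epithelial serine protease gene St14 rose by 0.37 ± 0.09 (adjusted p = 0.0267), a call lost without heterozygous array 2 or homozygous array 1 or 3 (0.29 to 0.38) and after cyclic loess (0.28). In all, 2 of 9 tested genes around the pair rose and none fell, beside 10.4% higher and 6.56% lower of all genes. With so few genes, nothing is read from the absence of falls. The median log2 fold change was 0.05 against 0.02 over all genes.

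Around Lsamp 2 of 9 tested neighbours rose, and around Negr1 1 rose and 1 fell. Gap43, a growth cone protein of extending axons that lies close to Lsamp, rose from 1707 ± 49.7 to 2876 ± 125 (SD, n = 3; 0.75 ± 0.06, adjusted p = 0.000307). The immune receptor gene Tigit was at the threshold (0.30 ± 0.09, adjusted p = 0.0497), and lost its call without any 1 array except homozygous array 1 (0.24 to 0.35 over those refits) and under all other alternatives (adjusted p = 0.0505 to 0.212) but the stricter filter, the mean of probe sets and an added 16. Near Negr1, the prostaglandin receptor gene Ptger3 rose from 248 ± 13.7 to 388 ± 7.55 (SD, n = 3; 0.64 ± 0.06, adjusted p = 0.000763). Cth, of cysteine synthesis, fell by 0.26 ± 0.06 (adjusted p = 0.0257), a call lost without heterozygous array 1 or 2 or homozygous array 1 or 3 (−0.29 to −0.22), after quantile normalization (adjusted p = 0.069) and after cyclic loess (adjusted p = 0.0597). Taking all 3 loci together, 5 of 27 tested neighbours rose and 1 fell, or 22.2%, beside 17.0% of all genes. That count of 6 became 3 without heterozygous array 2, without homozygous array 3 or after cyclic loess.

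**Figure D2:**
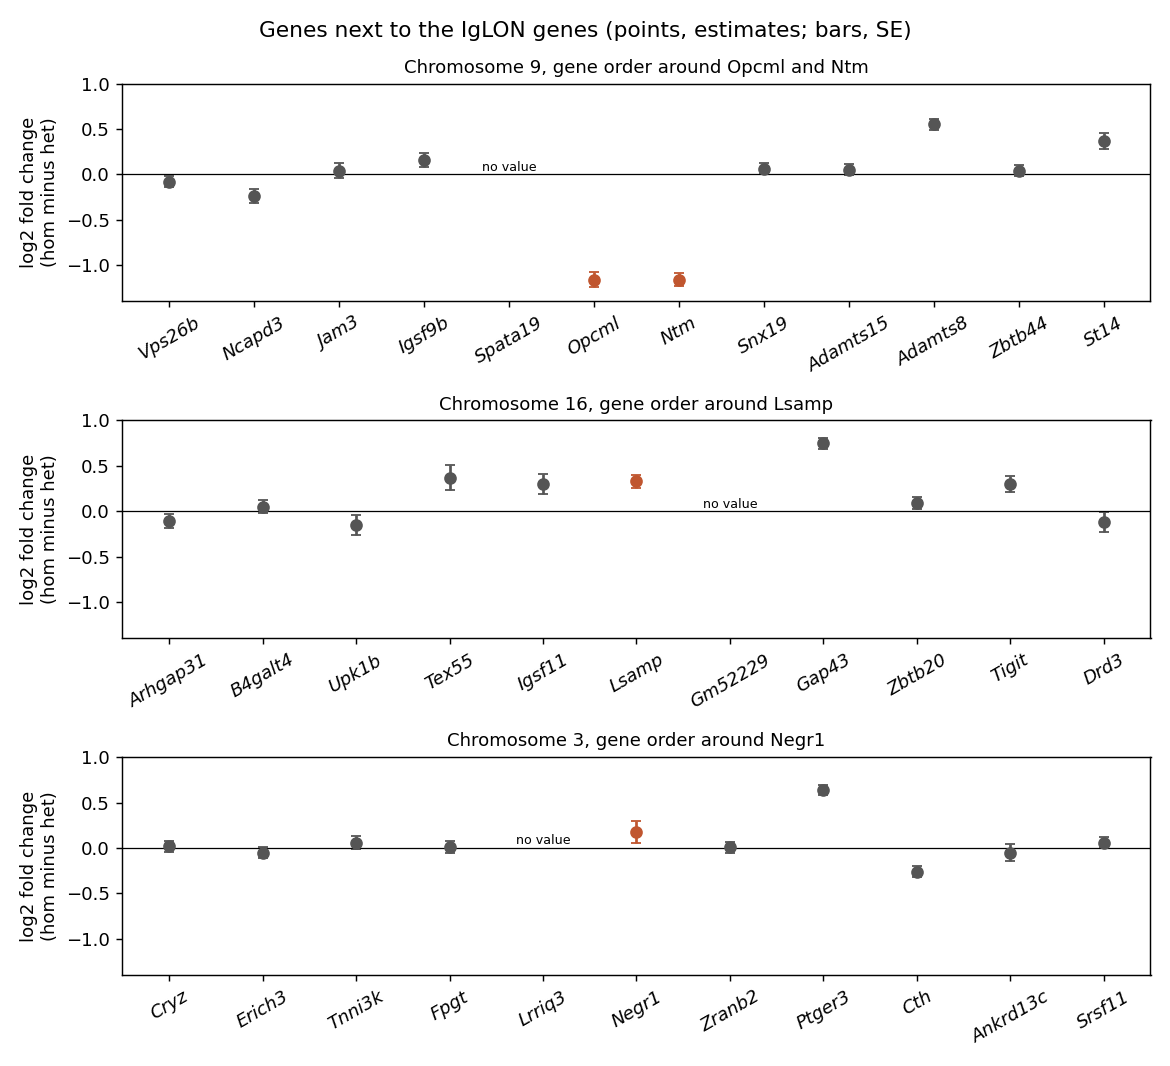
Log2 fold change (homozygous minus heterozygous, points) with SE (bars) of the IgLON genes (orange) and of the protein-coding genes around them (grey), in RefSeq order and not to scale. Opcml and Ntm sit at −1.16 with neighbours between −0.24 and 0.55. Genes marked without a value were too dim to test (Spata19, Lrriq3) or have no probe set of their own symbol here (Gm52229).

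Other adhesion genes of the immunoglobulin superfamily moved in both directions. The list holds the contactins, the Ncam, L1, nectin, Cadm, Dscam, Kirrel and sidekick families and single genes such as Thy1. It also holds the IgLON gene Iglon5, given above and not called. Igsf9b and Igsf11 are also neighbours of an IgLON gene, and 37 of 38 listed genes were tested. Of these 7 rose and 3 fell, or 27.0% beside 17.0% of all genes, with a median log2 fold change of 0.10. The largest rises were those of Dscaml1, which keeps neurites of the same kind apart (0.49 ± 0.11, adjusted p = 0.0201), Cntn2, an axonal contactin with a lipid anchor like that of the IgLONs (0.41 ± 0.07, adjusted p = 0.00915), Ncam1, the neural cell adhesion molecule, from 680 ± 24.4 to 903 ± 79.3 (SD, n = 3; 0.41 ± 0.08, adjusted p = 0.0122), and Nectin4, of epithelial junctions (0.38 ± 0.09, adjusted p = 0.0278). The falls were those of Hmcn1, a giant extracellular protein with many immunoglobulin domains, from 877 ± 42.7 to 473 ± 65.3 (SD, n = 3; −0.90 ± 0.10, adjusted p = 0.0014), Cadm4, an adhesion molecule of glia and epithelium, from 301 ± 39.0 to 179 ± 9.07 (SD, n = 3; −0.74 ± 0.10, adjusted p = 0.00275), and Kirrel, a relative of nephrin (−0.24 ± 0.06, adjusted p = 0.0351). With the brightest probe set per gene the lowest estimate of the list was −0.90, above those of Opcml and Ntm, but Hmcn1 was at −1.51 ± 0.13 (adjusted p = 0.000392) with its probe set of largest variance, below the pair. The count of 10 was 6 without heterozygous array 1, 4 without heterozygous array 2, 6 without homozygous array 1 and 5 without homozygous array 3. Dscaml1 lost its call without heterozygous array 2 or homozygous array 1 or 3 (0.39 to 0.46), Nectin4 without heterozygous array 1 or 2 or homozygous array 1 or 3 (0.32 to 0.39) and after cyclic loess (0.28), and Kirrel in every refit without 1 array but that without homozygous array 2 (−0.25 to −0.20), after quantile normalization (adjusted p = 0.0672) and after cyclic loess (adjusted p = 0.0751). In a fit that includes the level of Y-linked genes, Ncam1 (adjusted p = 0.0633), Nectin4 (adjusted p = 0.0944) and Kirrel (adjusted p = 0.112) did not pass.

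None of 7 listed genes whose proteins bind or release IgLONs, the IgLONs themselves left out, passed the test in limma. Of all genes 17.0% passed, and with only 7 listed nothing is read from this count. The list held the kinases Fgfr1, Fgfr2, Epha2, Erbb2, Erbb4 and Axl and the protease Adam10, which sheds Negr1. Of these 7, 3 had an unadjusted p below 0.05 in limma. Over all genes this share was not counted, but it is at least the 17.0% called. Nothing is thus read from these 3. Fgfr2, a fibroblast growth factor receptor, was at 294 ± 4.71 and 332 ± 16.4 (SD, n = 3; 0.17 ± 0.06, adjusted p = 0.0909), and passed after quantile normalization (0.25, adjusted p = 0.037) and with array weights (0.19, adjusted p = 0.0451). Erbb4, a neuregulin receptor, was dim at 29.5 ± 4.78 and 36.4 ± 2.48 (SD, n = 3; 0.30 ± 0.11, adjusted p = 0.092), and passed without heterozygous array 3 (0.42, adjusted p = 0.026) and in the fit that includes Y-linked genes (0.50, adjusted p = 0.0343). Estimates over the list ran from −0.13 to 0.30, with a median of 0.06.

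Markers of neural crest, neurons and glia mostly lay the opposite way from Opcml and Ntm. Of 26 tested markers 13 rose and 1 fell, or 53.8% beside 17.0% of all genes, with a median log2 fold change of 0.41. Stmn2, a microtubule regulator of growing axons, rose from 205 ± 8.31 to 360 ± 21.9 (SD, n = 3; 0.81 ± 0.07, adjusted p = 0.000341). Gap43, given above beside Lsamp, and the neuronal microtubule gene Dcx (0.70 ± 0.10, adjusted p = 0.0033) rose as well. Sox10, a factor of neural crest and glia, rose by 0.57 ± 0.14 (adjusted p = 0.0273), a call lost without heterozygous array 1 or homozygous array 1 or 3 (0.55 to 0.60), and was at 0.88 in the fit that includes Y-linked genes. The fall was that of Fabp7, a fatty acid binding protein of glia, from 317 ± 49.6 to 121 ± 13.6 (SD, n = 3; −1.38 ± 0.13, adjusted p = 0.000469). Summed over the list, intensity ran from 5018 to 5115 on the heterozygous and from 6914 to 7438 on the homozygous arrays, and Gap43 alone made up much of it. No marker was at 0, the lowest value being 30.6 for S100b. The part of neural cells in the levels of the 4 IgLON genes was not tested.

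**Figure D3:**
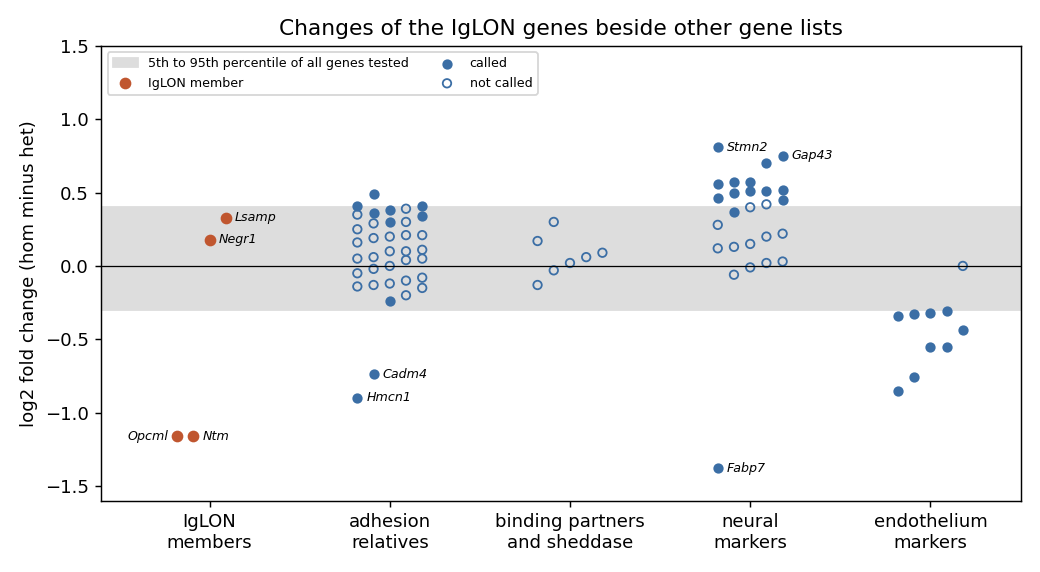
Log2 fold change (homozygous minus heterozygous) of each tested gene in 5 lists. Orange points are IgLON members, filled blue points are genes called at an adjusted p below 0.05 in limma, open points are genes not called, and the grey band spans the 5th to 95th percentile of all genes tested (−0.30 to 0.40). Opcml and Ntm sit at −1.16, below the adhesion relatives at their brightest probe sets (Hmcn1 is at −1.51 with its probe set of largest variance), while most called neural markers sit above 0 and most endothelium markers below it.

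Markers of several other cell types also moved with genotype, and their counts stand beside 6.56% of all genes called lower and 10.4% called higher. Lower in homozygous spleens, as Opcml and Ntm were, were 9 of 10 endothelium markers (median −0.39, summed intensity 8312 to 8645 on heterozygous and 6002 to 6431 on homozygous arrays), 5 of 7 erythroid markers (−0.69, 2712 to 3091 and 1733 to 1978) and 6 of 10 spleen mesenchyme markers, Tlx1 among them (−0.25, 18988 to 19696 and 18011 to 18536), with 1 mesenchyme marker higher. Higher were 4 of 8 epithelium markers (0.36, 1674 to 2203 and 2295 to 2490), 2 of 7 pancreas markers (0.42, 1219 to 1771 and 2704 to 5997) and 1 of 6 smooth muscle markers (0.16, 1532 to 1870 and 1953 to 2169). Cpa1, which was called, and Gcg, which was not, made up much of the pancreas sum. For Gcg the groups overlapped (98.0 to 1032 heterozygous, 761 to 3751 homozygous). Of 8 mesothelium markers 1 rose and 1 fell (−0.06, 6627 to 7125 and 6590 to 6673). The mesothelium fall was that of Wt1, which is also counted among the mesenchyme markers that fell. None of 8 macrophage markers was called in limma (0.01, 2608 to 2709 and 2672 to 2809). Among the macrophage markers 3 had an unadjusted p below 0.05 in limma. Over all genes this share was not counted, but it is at least the 17.0% called, so nothing is read from it. No marker was at 0 in any of these lists, which does not show expression above background. Leaving out homozygous array 1 lowered the counts to 5 for endothelium, 3 for erythroid and 3 for spleen mesenchyme markers, and to 1 each for epithelium, pancreas and mesothelium. Without heterozygous array 2 the counts were 1 for epithelium, 1 for pancreas and 4 for mesenchyme. Without homozygous array 3 they were 3 for erythroid, 2 for epithelium, 1 for pancreas and 1 for macrophage markers. Mesenchyme also fell to 4 without heterozygous array 1, epithelium to 2 without heterozygous array 3, and pancreas went to 4 without homozygous array 2. In the fit that includes Y-linked genes they were 5 for endothelium, 3 for erythroid, 3 for mesenchyme and 1 for mesothelium. The part of these cell types in the IgLON levels was not tested.

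Profiles over the 6 arrays were compared by root mean square difference of log2 values centred on each gene's mean. Predicted and clone names were skipped in the lists of nearest genes. Nearest to Opcml were Ntm (0.091), the calmodulin-dependent phosphodiesterase gene Pde1a (0.091), the embryonic globin gene Hbb-bh1 (0.108), the microtubule end-binding gene Mapre2 (0.117) and the transcription factor gene Creb5 (0.122). Pde1a was 241 ± 11.2 in heterozygous and 113 ± 0.544 in homozygous spleens (SD, n = 3), and Hbb-bh1, of a family of similar genes, 170 ± 8.10 and 81.5 ± 12.8 (SD, n = 3). Nearest to Ntm were Pde1a (0.075), Opcml (0.091), Nwd2 (0.099), the guanine nucleotide exchange factor gene Vav3 (0.102) and the G protein signalling regulator gene Rgs2 (0.105). Rgs2 was 438 ± 3.02 and 218 ± 8.15 (SD, n = 3). With no name skipped, Ntm was the closest of 18709 genes to Opcml, and Opcml the second closest to Ntm. This describes the pair and is no test, since the pair was chosen for being lower together. All these genes were about as much lower in homozygous spleens as the pair, with log2 fold changes from −1.33 for Nwd2 to −0.95 for Mapre2. The measure itself requires this, since a gene with a different change between groups lies far from the pair.

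**Figure D4:**
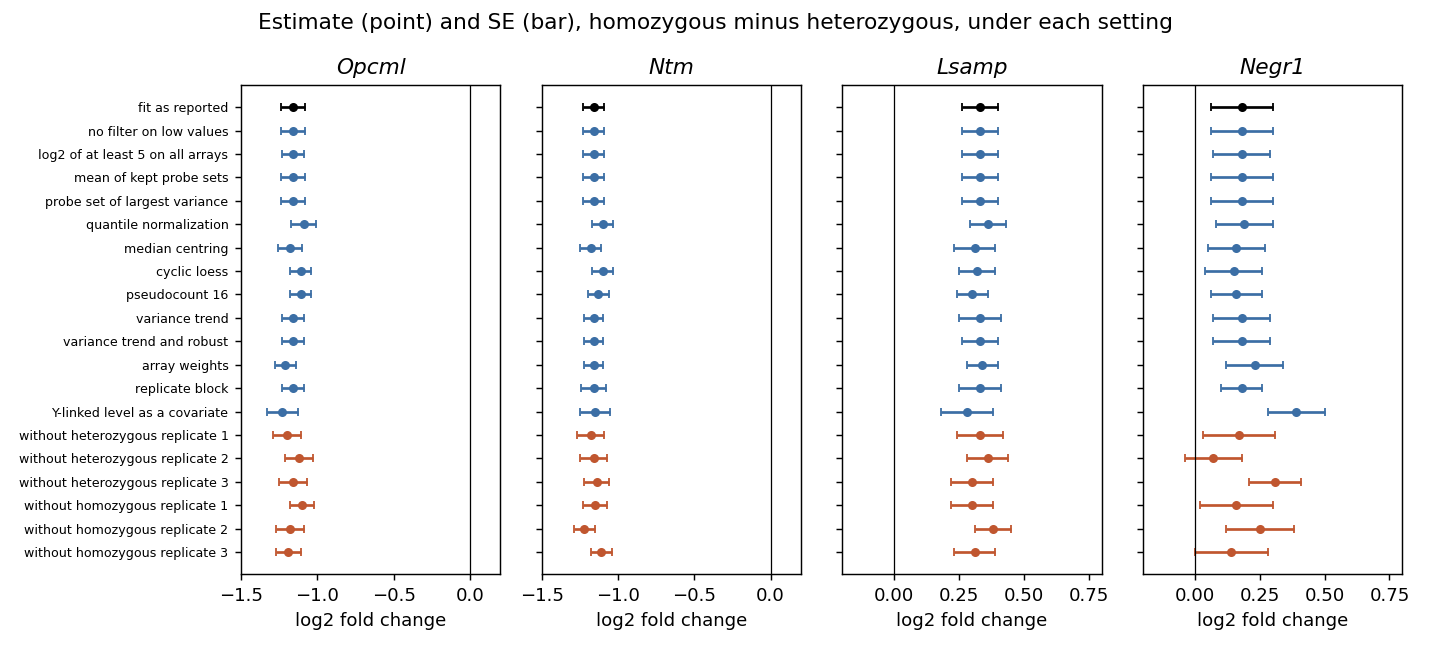
Log2 fold change (points) and SE (bars), homozygous minus heterozygous, of the 4 IgLON genes as reported (black), under other processing (blue) and with 1 array left out (orange). Opcml and Ntm stay between −1.23 and −1.09, Lsamp between 0.28 and 0.38, and Negr1 runs from 0.07 to 0.39.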

How the data were processed

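Total RNA of E13.5 spleens was measured on 6 Affymetrix mouse gene arrays, 3 per Tlx1 genotype. The deposited values are intensities, 1 per probe set and array, which the authors made with GCRMA, a method that corrects background by probe sequence, normalizes between arrays and summarises probes (per the submitters' processing notes). Its version and the build were not given in the sources used here. Deposited intensities are on a linear scale, although GCRMA usually gives log2 values.

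Of 35512 probe sets, the platform annotation gave 21789 a single symbol, 1621 several and 12102 none. Entrez identifiers of 21698 were found in RefSeq (GRCm38.p6), whose gene table gave the order of neighbours. The brightest probe set per gene was used among those with a log2 value of at least 4 (intensity 15) on 3 of 6 arrays. Homozygous minus heterozygous was fitted with limma 3.58.1 (R 4.3.3; lmFit, eBayes) on log2(intensity + 1), which pulls dim genes toward 0. Two-sided p-values were adjusted by Benjamini-Hochberg over 18710 genes, and the steps were tested on simulated data. Levels are mean ± SD and fold changes ± SE, with 3 arrays per group, whose number limits the precision. Members and lists were chosen with earlier results of these data known. Named genes were all members, Iglon5, Tlx1, from the adhesion, partner and neural lists the most changed called genes, up to 4 each way (or, with none called, those 2 of smallest p), all tested neighbours of Opcml and Ntm, called neighbours of Lsamp and Negr1, and the 5 genes nearest in pattern to Opcml and to Ntm. Predicted and clone names were skipped among these nearest genes. Alternatives were other filters, probe set choices, scalings, pseudocounts, variance models, array weights, a replicate block, the Y-linked level (Eif2s3y, Kdm5d, Uty) as a covariate, and leaving out each array.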

Additional observations from a re-analysis of the deposited data

How the results depend on the processing

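The estimates of Opcml, Ntm and Lsamp kept their direction and moved by less than the residual SD under all 19 alternatives, and Negr1 under 18, the exception being 0.39 in the fit with Y-linked genes as a covariate. Leaving out 1 array gave −1.20 to −1.10 for Opcml, −1.22 to −1.11 for Ntm, 0.30 to 0.38 for Lsamp and 0.07 to 0.31 for Negr1. In such refits the number of genes called ran from 1198 to 3563 (3178 with all arrays), of adhesion relatives from 4 to 11 (10), of binding partners from 0 to 1 (0), of chromosomal neighbours from 3 to 6 (6) and of neural markers from 11 to 18 (14). With the Y-linked covariate 1647 genes, 6 relatives and 1 partner were called. Array weights gave 17 relatives and 1 partner, quantile normalization 1 partner and cyclic loess 3 neighbours. Jam3 (0.04) turned to −0.01 with the Y-linked covariate, and ran from −0.03 without homozygous array 1 to 0.12 without homozygous array 2. The cause of these changes was not tested. The replicate numbers are shared between groups, but same-numbered arrays deviated from their group means with correlations of −0.01, 0.04 and −0.11. None correlated best with its own number. No pairing by number was thus seen, though 3 arrays per group cannot exclude it. With the replicate number as a block 3163 genes and 1 partner (Erbb4, adjusted p = 0.0376) were called, and Kirrel was not (adjusted p = 0.0563). The members were bright relative to the filter of 15, which left their estimates at the values given. Lsamp (means of 143 and 180) and Negr1 (134 and 151) were nearer to the array medians of 106 to 110 than Opcml and Ntm were. Each member had 1 probe set, so the choice of probe set could not change its estimate.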
